A study of Mus musculus with 30 samples.

Results

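The 10 genes described here, Cpt2, Abcd3, Acadvl, Acadl, Acadm, Hadha, Hadhb, Acaa2, Ech1 and Etfdh, encode transporters and enzymes of fatty acid oxidation. They were found by name in the array's gene annotation, they are 10 of the 11463 genes tested, and all 10 passed the filter on missing values. The set was chosen by role, with differences in these log2 ratios between the same groups already in view, so their levels and differences are a description, and the p-values below come from a fit across all genes and support nothing about the choice. RNA from inguinal mammary glands of mice aged 19 weeks on the 129sv background was labelled with Cy5 and hybridised on 2-colour Agilent arrays beside a universal mouse reference RNA labelled with Cy3. The study addressed the part of endogenous type I interferon in tumour formation driven by the Her2/Neu oncogene. The 30 arrays fall into 9 Her2/Neu+/IFNAR1-/- glands, which carry the oncogene and lack the type I interferon receptor chain, 6 Her2/Neu+ glands with the oncogene alone, 8 IFNAR1-/- glands without the receptor chain alone, and 7 wild-type (WT) glands with neither change. The promoter that drives the oncogene is not given in the sources used here. Each gland is a bulk sample of fat, epithelium, vessels and immune cells, so fewer cells of a type and less RNA per cell cannot be told apart.

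Mitochondrial oxidation of fatty acids begins when the carnitine shuttle carries fatty acyl groups across the inner membrane, where Cpt2 returns them to coenzyme A. Each turn of the cycle then uses an acyl-CoA dehydrogenase, a hydratase, a second dehydrogenase and a thiolase, and passes its electrons through electron transfer flavoprotein to the respiratory chain. Peroxisomes run a related pathway on very long and branched chains, and Abcd3 brings substrates to it. In the mammary gland the surrounding fat pad stores and releases fatty acids, and the alveolar epithelium makes milk fat.

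All values are log2 ratios of gland RNA over reference RNA, so a positive value means more signal in the gland. The deposited values end at -6 and 6. Each array held 17485 to 20801 values on 20896 probes, and between 2639 and 10385 of an array's values occurred more than once on that array, mostly near 0. What the repeated values stand for is not given in the sources used here; if they were filled in for undetected spots, a difference that rests on them has no exact size. The 8 slides and 2 array sets used below were inferred from block numbers and sample order and are not stated in the labels. Ifnar1 had a mean log2 ratio of 1.04 ± 1.23 in Her2/Neu+/IFNAR1-/- glands (SD, n = 8), 0.77 ± 1.45 in Her2/Neu+ glands (n = 6), 0.20 ± 0.89 in IFNAR1-/- glands (n = 8) and 0.42 ± 0.92 in WT glands (n = 7), so its probes did not separate the genotypes. Mouse Erbb2 averaged between 0.19 and 0.52 in the 4 groups, and its probes may not read the transgene.

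Between groups, the 10 genes were on average lower in the glands with the oncogene than in WT glands, but no single gene passed the threshold of an adjusted p under 0.05 in any comparison. Averaged over the 10 genes after centring each on its own mean, the log2 ratio was -0.37 ± 0.50 in Her2/Neu+/IFNAR1-/- glands (SD, n = 9), -0.46 ± 0.69 in Her2/Neu+ glands (n = 6), 0.22 ± 0.39 in IFNAR1-/- glands (n = 8) and 0.62 ± 0.48 in WT glands (n = 7). WT had the highest group mean for 7 genes and IFNAR1-/- for the other 3, Abcd3, Hadha and Ech1. The lowest group mean was that of Her2/Neu+ for 6 genes, of Her2/Neu+/IFNAR1-/- for 3 and of IFNAR1-/- for 1, Cpt2. No neighbouring groups that were compared differed past the threshold, and Her2/Neu+ was not compared with IFNAR1-/-. The plot of log2 ratios by array shows every value.

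**Figure D1:**
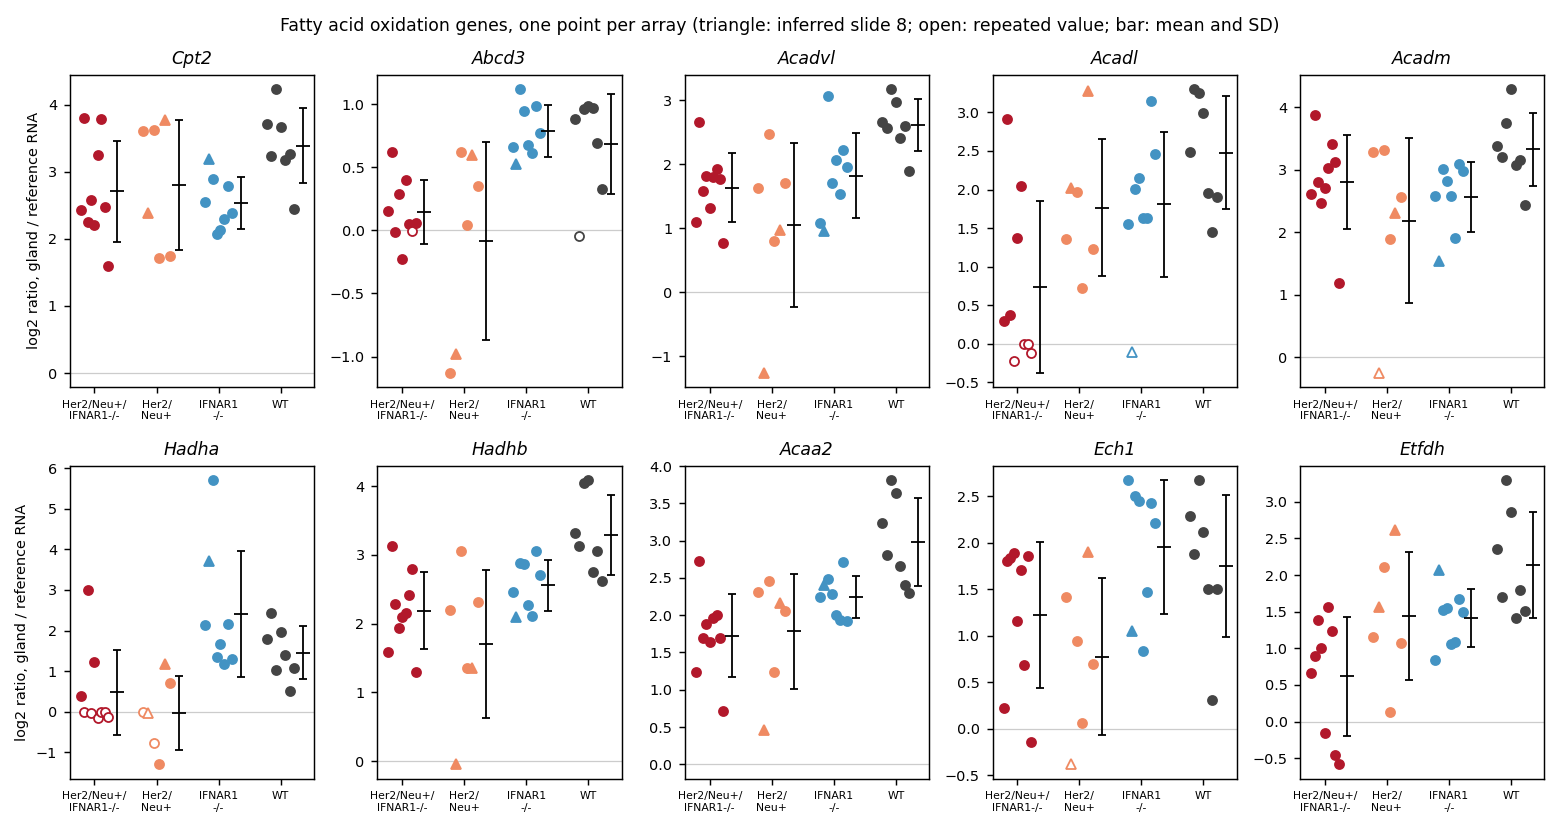
Log2 ratio of gland over reference RNA for each of the 10 genes on each of the 30 arrays, by group, with the mean and SD of the group as a bar. Triangles are the 3 arrays of inferred slide 8, and open symbols are values that occur more than once on their array. WT has the highest mean for 7 genes. Groups that were compared overlap for all 10 genes. For Hadha every Her2/Neu+ array lies just below every IFNAR1-/- array, a pair that was not compared and has no share over all genes beside it.

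The transport genes overlapped between all groups. Cpt2, carnitine palmitoyltransferase 2 of the inner mitochondrial membrane, had a lowest, median and highest log2 ratio of 1.59, 2.47 and 3.80 in Her2/Neu+/IFNAR1-/- glands, 1.72, 3.00 and 3.76 in Her2/Neu+ glands, 2.08, 2.46 and 3.19 in IFNAR1-/- glands and 2.44, 3.27 and 4.24 in WT glands. The ranges of all 4 groups overlapped, and 4 of the 8 IFNAR1-/- arrays lay below every WT array. Abcd3, the peroxisomal ATP-binding cassette transporter also known as PMP70, had -0.23, 0.060 and 0.62 in Her2/Neu+/IFNAR1-/- glands, -1.13, 0.20 and 0.62 in Her2/Neu+ glands, 0.52, 0.73 and 1.12 in IFNAR1-/- glands and -0.041, 0.88 and 0.99 in WT glands. For Abcd3, 8 of the 9 Her2/Neu+/IFNAR1-/- arrays lay below every IFNAR1-/- array. The difference there was -0.64 ± 0.22 (SE, adjusted p = 0.120, limma).

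The acyl-CoA dehydrogenases Acadvl, Acadl and Acadm take very long, long and medium chains and catalyse the first step of each turn. The promoter windows of Acadvl and Acadm are shown because they hold AGGTCA, the half-site bound by many nuclear receptors, which the windows of 7 other genes of the set lack; no window of Acaa2 was used here. Each window runs from 250 bases before to 50 bases after the RefSeq start site (GRCm38.p6), and capitals mark AGGTCA or its reverse complement TGACCT and, in the windows further on, GGGCGG or its reverse complement CCGCCC.
Acadvl, chr11:70015379-70015678, minus strand: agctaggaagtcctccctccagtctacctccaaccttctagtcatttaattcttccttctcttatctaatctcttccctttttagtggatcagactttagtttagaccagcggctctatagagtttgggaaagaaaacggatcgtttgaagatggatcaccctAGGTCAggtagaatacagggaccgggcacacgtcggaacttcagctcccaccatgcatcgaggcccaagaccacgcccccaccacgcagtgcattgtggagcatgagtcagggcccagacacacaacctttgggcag
Acadm, chr3:153944594-153944893, minus strand: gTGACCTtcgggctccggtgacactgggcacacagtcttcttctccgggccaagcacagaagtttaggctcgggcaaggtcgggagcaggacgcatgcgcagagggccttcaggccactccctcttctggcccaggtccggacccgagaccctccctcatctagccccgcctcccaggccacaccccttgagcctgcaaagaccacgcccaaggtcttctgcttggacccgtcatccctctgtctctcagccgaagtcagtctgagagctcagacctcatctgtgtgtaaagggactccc
The match starts at base -87 from the start site in Acadvl and, on the opposite strand, at base -249 in Acadm. AGGTCA on either strand was present in 16.3% of 32851 RefSeq windows of the same length. The direct repeat of AGGTCA with 1 free base between its copies, known to be bound by PPAR and RXR, was in no window of these 9 genes (10 windows, as Abcd3 has a second start site) and in 0.0396% of all windows. These are letter matches in a short window and say nothing of binding.

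Acadvl had a lowest, median and highest log2 ratio of 0.77, 1.76 and 2.67 in Her2/Neu+/IFNAR1-/- glands, -1.27, 1.30 and 2.48 in Her2/Neu+ glands, 0.96, 1.83 and 3.06 in IFNAR1-/- glands and 1.89, 2.60 and 3.18 in WT glands. On 5 of 6 Her2/Neu+ arrays and 7 of 9 Her2/Neu+/IFNAR1-/- arrays it was below every WT array. Acadl had -0.23, 0.29 and 2.92 in Her2/Neu+/IFNAR1-/- glands, 0.72, 1.66 and 3.28 in Her2/Neu+ glands, -0.11, 1.82 and 3.15 in IFNAR1-/- glands and 1.45, 2.49 and 3.31 in WT glands. Of the 9 Her2/Neu+/IFNAR1-/- arrays, 7 lay below every WT array, and 4 of the 9 carried repeated values near 0. Acadm had 1.19, 2.81 and 3.88 in Her2/Neu+/IFNAR1-/- glands, -0.26, 2.44 and 3.32 in Her2/Neu+ glands, 1.55, 2.70 and 3.08 in IFNAR1-/- glands and 2.43, 3.20 and 4.29 in WT glands. Its ranges overlapped widely, and the lowest value, on Her2/Neu+ 114, was a repeated one.

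Hadha and Hadhb encode the alpha and beta subunits of the mitochondrial trifunctional protein, which carries out the last 3 steps of the cycle on long chains. The genes lie head to head on chromosome 5, with start sites 273 bases apart, and their promoter windows share 228 bases. Both windows are printed for that reason, in the same format as above.
Hadha, chr5:30154931-30155230, minus strand: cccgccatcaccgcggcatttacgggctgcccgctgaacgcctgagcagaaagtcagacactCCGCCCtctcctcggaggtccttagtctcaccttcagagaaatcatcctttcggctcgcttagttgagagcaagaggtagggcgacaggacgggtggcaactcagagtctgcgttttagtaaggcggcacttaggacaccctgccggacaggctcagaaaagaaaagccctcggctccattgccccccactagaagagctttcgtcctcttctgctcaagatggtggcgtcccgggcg
Hadhb, chr5:30155003-30155302, plus strand: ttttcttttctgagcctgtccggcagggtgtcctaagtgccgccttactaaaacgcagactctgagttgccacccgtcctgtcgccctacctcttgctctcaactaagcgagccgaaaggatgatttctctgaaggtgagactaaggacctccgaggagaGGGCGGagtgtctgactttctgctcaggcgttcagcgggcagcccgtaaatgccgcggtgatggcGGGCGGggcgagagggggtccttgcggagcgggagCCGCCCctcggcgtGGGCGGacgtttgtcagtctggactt
GGGCGG, the GC box, occurred in the windows of 6 of the 9 genes and in 35.7% of all windows. The only Hadha match is the same site as a Hadhb match, in the bases their windows share, so that site counts for each of them. CCAAT was found for 1 of the 9 genes, Etfdh, and in 37.4% of all windows. The GC content of the genes' windows ran from 50.7% to 76.3%, against a median of 52.7% over all windows.

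Despite the shared promoter region, the arrays gave the subunits different patterns. Hadhb had a lowest, median and highest log2 ratio of 1.29, 2.15 and 3.13 in Her2/Neu+/IFNAR1-/- glands, -0.048, 1.78 and 3.06 in Her2/Neu+ glands, 2.10, 2.58 and 3.05 in IFNAR1-/- glands and 2.62, 3.14 and 4.09 in WT glands. On 5 of 6 Her2/Neu+ arrays and 7 of 9 Her2/Neu+/IFNAR1-/- arrays Hadhb was below every WT array. Hadha had -0.15, -0.0068 and 3.00 in Her2/Neu+/IFNAR1-/- glands, -1.29, -0.014 and 1.18 in Her2/Neu+ glands, 1.18, 1.91 and 5.71 in IFNAR1-/- glands and 0.50, 1.40 and 2.44 in WT glands. Every Her2/Neu+ value was below every IFNAR1-/- value, by a small margin (highest 1.178 against lowest 1.185). The share of all genes with such a gap was not counted for this pair, so the gap cannot be judged against it. Hadha was highest on IFNAR1-/- 42, at 5.71, and IFNAR1-/- 41, at 3.72. Of its values, 6 of 9 in Her2/Neu+/IFNAR1-/- glands and 3 of 6 in Her2/Neu+ glands were repeated on their array, and with repeated values set to missing the gene could not be tested. The size of a Hadha difference that involves either group is therefore uncertain. Across the 30 arrays Hadha and Hadhb had a Pearson r of 0.30, against 0.92 for Hadhb and Acadvl. No r was computed without single arrays or slides.

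Acaa2, the mitochondrial 3-ketoacyl-CoA thiolase that closes the cycle, is read by 10 probes, where each of the others has 1. It had a lowest, median and highest log2 ratio of 0.71, 1.69 and 2.73 in Her2/Neu+/IFNAR1-/- glands, 0.46, 2.11 and 2.45 in Her2/Neu+ glands, 1.92, 2.26 and 2.71 in IFNAR1-/- glands and 2.30, 2.81 and 3.81 in WT glands. It was below every WT array on 8 of 9 Her2/Neu+/IFNAR1-/- arrays, 4 of 6 Her2/Neu+ arrays and 5 of 8 IFNAR1-/- arrays. Ech1, an isomerase that moves double bonds of unsaturated chains into place, had -0.14, 1.71 and 1.89 in Her2/Neu+/IFNAR1-/- glands, -0.38, 0.82 and 1.90 in Her2/Neu+ glands, 0.83, 2.32 and 2.67 in IFNAR1-/- glands and 0.31, 1.88 and 2.67 in WT glands. Etfdh, which passes electrons of the acyl-CoA dehydrogenases to ubiquinone, had -0.58, 0.90 and 1.56 in Her2/Neu+/IFNAR1-/- glands, 0.13, 1.36 and 2.62 in Her2/Neu+ glands, 0.84, 1.51 and 2.07 in IFNAR1-/- glands and 1.41, 1.80 and 3.30 in WT glands. Etfdh was below every WT array on 8 of 9 Her2/Neu+/IFNAR1-/- arrays, all but the highest of the group.

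Some arrays stood low or high for many of the 10 genes at once. Among Her2/Neu+/IFNAR1-/- glands, array 103 held the highest value of the group for 7 genes and array 110 the lowest for 7. Among Her2/Neu+ glands, array 114, of inferred slide 8, held the lowest value for 5 genes and array 118 for 4. Among WT glands, array 60 held the lowest value for 5 genes and array 55 the highest for 5. The share of all genes with their extreme on these arrays was not counted, so the counts cannot be judged against it.

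With the oncogene alone, all 10 genes lay below WT, with a median log2 difference of -1.06. Over all 11463 genes tested the median was -0.020, and 51.4% lay below 0. In the limma fit 0 of 10 genes passed, against 0.131% of all genes. At an unadjusted p under 0.05, 7 of 10 were lower, against 6.69% of all genes. Hadhb differed by -1.59 ± 0.36 (SE, 3.00-fold lower, adjusted p = 0.0855) and was below the WT mean on 6 of 6 arrays. Acadvl differed by -1.56 ± 0.41 (2.95-fold lower, adjusted p = 0.117), Hadha, with repeated values on 3 of 6 arrays, by -1.49 ± 0.60 (adjusted p = 0.289) and Acaa2 by -1.20 ± 0.31 (adjusted p = 0.113). Acadm differed by -1.14 ± 0.44 and Ech1 by -0.98 ± 0.42. Abcd3 was at -0.77 ± 0.25, Acadl at -0.72 ± 0.51, Etfdh at -0.69 ± 0.39 and Cpt2 at -0.58 ± 0.38. The groups overlapped for all 10 genes, where 0.192% of all genes had every Her2/Neu+ array below every WT array.

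The size of this difference rested partly on inferred slide 8, which holds Her2/Neu+ 114, Her2/Neu+ 119 and IFNAR1-/- 41. Without those 3 arrays all 10 genes were still below WT, with a median of -0.97. Acadm was then at -0.56, Acadvl at -0.96 and Hadhb at -1.06, while Acadl and Etfdh were at -1.16 and -1.02. In array set 2, where slide 8 supplies both Her2/Neu+ arrays, Acadl was at 0.061 and Etfdh at 0.27, and Hadhb (-2.42), Acadvl (-2.70) and Acaa2 (-1.59) passed the threshold. Without Her2/Neu+ 115 these same 3 genes passed over all arrays, at -1.86, -1.84 and -1.33. No inferred slide holds both Her2/Neu+ and WT arrays, so for that contrast slide and group cannot be told apart. The same holds for IFNAR1-/- against WT, and for Her2/Neu+/IFNAR1-/- against Her2/Neu+ or against IFNAR1-/-. In these contrasts a fit with inferred slide as a random block does not separate slide from group either.

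**Figure D2:**
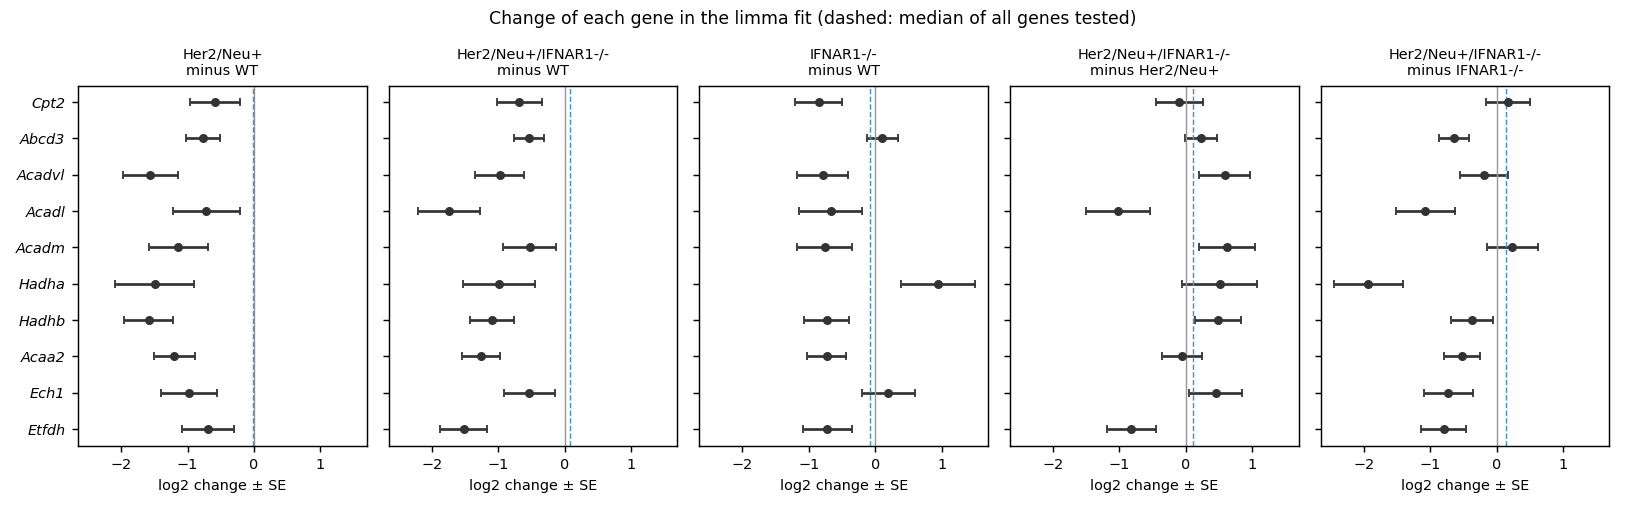
Log2 difference between groups for each of the 10 genes, with its SE, in 5 comparisons of the limma fit. The dashed line is the median of all 11463 genes tested, and all 10 genes lie below 0 against WT in Her2/Neu+ and in Her2/Neu+/IFNAR1-/- glands.

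The 10 spots of Acaa2 give a direct view of slide 8. Their SD within an array was 0.59 to 1.19 on the 3 slide 8 arrays and 0.084 to 0.38 on the other 27. On Her2/Neu+ 114 the 5 higher-numbered probes averaged 2.03 below the 5 lower-numbered ones on the log2 scale, with a mean of -0.56 against 1.47. On Her2/Neu+ 119 they averaged 1.47 against 2.86, and on IFNAR1-/- 41 they averaged 2.03 against 2.78. Over the 165 genes with 10 probes, the median SD between spots was 0.83 to 0.96 on slide 8 and 0.32 to 0.55 elsewhere. From the lower-numbered Acaa2 spots alone the Her2/Neu+ difference from WT was -0.92 ± 0.30, and from the higher-numbered ones it was -1.48 ± 0.37.

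The single-probe genes were set in order of probe number on the same arrays. On Her2/Neu+ 119, Cpt2 (probe 103), Etfdh (9509), Acadl (17902), Hadha (21309), Abcd3 (23247) and Ech1 (25503) were 1.09, 1.50, 1.96, 1.52, 0.63 and 1.12 above the mean of the other 4 Her2/Neu+ arrays, while Acadvl (27953), Hadhb (38352) and Acadm (42867) were at -0.68, -0.88 and -0.45. On Her2/Neu+ 114 the last 3 were the lowest, at -2.92, -2.28 and -3.02, but Cpt2, at -0.29, lay below Etfdh (0.45), Acadl (0.70) and Hadha (0.31), and Abcd3 and Ech1 were at -0.95 and -1.16. On IFNAR1-/- 41, against the mean of the other 7 IFNAR1-/- arrays, Cpt2, Etfdh and Hadha were at 0.74, 0.76 and 1.50, Acadl, a repeated value there, was at -2.19, and the 5 genes with higher numbers lay between -1.16 and -0.30. The values thus differed between low and high probe numbers without a strict order. The part of slide 8 in the differences between genes was not tested beyond leaving it out, and whether probe numbers follow position on the array is not given in the sources used here.

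**Figure D3:**
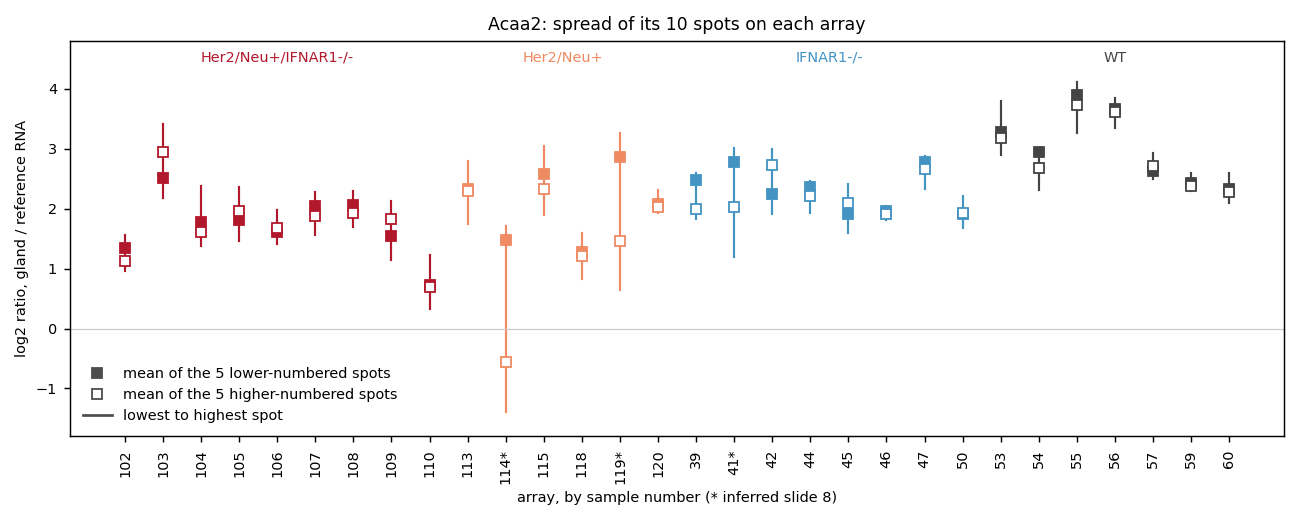
Log2 ratios of the 10 Acaa2 spots on each of the 30 arrays, in order of group and sample number. Squares are the means of the 5 lower-numbered (filled) and 5 higher-numbered (open) probes, lines run from the lowest to the highest spot, and the widest line is that of Her2/Neu+ 114, on slide 8.

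Glands with the oncogene and without the receptor were compared with WT as a contrast added after the values were seen. All 10 genes again lay below WT, with a median log2 difference of -0.98, against a median of 0.084 over all genes and 40.4% of all genes below 0. In limma 0 of 10 passed, against 0.174% of all genes, and 6 of 10 were lower at an unadjusted p under 0.05, against 4.55%. Acaa2 differed by -1.25 ± 0.28 (SE, 2.39-fold lower, adjusted p = 0.0571), with 9 of 9 arrays below the WT mean. Etfdh differed by -1.52 ± 0.36 (2.86-fold lower, adjusted p = 0.0665), also on 9 of 9 arrays. Acadl, with repeated values on 4 of 9 arrays, had a fitted difference of -1.74 ± 0.46 (adjusted p = 0.129) and Hadhb differed by -1.10 ± 0.33 (adjusted p = 0.188). The other 6 lay between -0.98 and -0.53. The groups overlapped for all 10 genes, where 0.105% of all genes had every Her2/Neu+/IFNAR1-/- array below every WT array.

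No array of slide 8 belongs to either group of this contrast. On inferred slide 6, the one slide with both groups, Her2/Neu+/IFNAR1-/- 102 was below the mean of the 3 WT arrays for 10 of 10 genes, by a median of -1.47. That is 1 array against 3, with no test. The share of all genes lower on that array was not counted, so the 10 of 10 cannot be judged against it. The adjusted p of Acaa2 was 0.0374 without slide 8, where its difference is the same but the estimate of spread and the genes tested (11425) are not, 0.0258 without Her2/Neu+ 114, 0.0384 without WT 60 and 0.0202 without Her2/Neu+/IFNAR1-/- 103, in a range of 0.00524 to 0.574 over all alternatives. Without Her2/Neu+/IFNAR1-/- 103 Acadl also passed, at -2.02, and without Her2/Neu+/IFNAR1-/- 104 Etfdh passed, at -1.61. From the 5 lower-numbered Acaa2 spots alone the difference was -1.31 ± 0.27 with an adjusted p of 0.0324 in limma. From the 5 higher-numbered ones it was -1.20 ± 0.34 with an adjusted p of 0.152, which did not pass. With repeated values missing, Acadl was at -1.08 and no longer at -1.74.

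Without the receptor alone, 7 of 10 genes lay below WT, where 58% of all genes did, with a median of -0.73 against -0.079 for all genes. In limma 0 of 10 passed, against 0.0262% of all genes, and 4 of 10 were lower at an unadjusted p under 0.05, against 3.99%. Those 4 were Acaa2 at -0.73 ± 0.29, Cpt2 at -0.85 ± 0.35, Hadhb at -0.73 ± 0.34 and Acadvl at -0.79 ± 0.38, with adjusted p between 0.684 and 0.725. With inferred slide as a random block 2 of the 4 were left, Acaa2 and Cpt2. Abcd3, Ech1 and Hadha were above WT, at 0.10 ± 0.24, 0.20 ± 0.39 and 0.95 ± 0.56. The groups overlapped for all 10 genes, where 0.131% of all genes had every IFNAR1-/- array below every WT array. The Hadha value moved to 0.23 without IFNAR1-/- 41, 42 and 44, on which skeletal muscle markers were high.

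Within oncogene-bearing glands, loss of the receptor gave no common direction: 4 of 10 genes were lower, where 40.9% of all genes were, and the median difference was 0.34 against 0.11 for all genes. In limma 0 of 10 passed, against 0.0785% of all genes. Acadl differed by -1.03 ± 0.48 (adjusted p = 0.434) and Etfdh by -0.82 ± 0.37 (adjusted p = 0.417), and they were the 2 genes lower at an unadjusted p under 0.05, against 4.18% of all genes. Acadl lay below every Her2/Neu+ array on 6 of 9 Her2/Neu+/IFNAR1-/- arrays. Acadm, Acadvl and Hadhb were higher by 0.62 ± 0.42, 0.58 ± 0.39 and 0.49 ± 0.35, and without slide 8 they were at 0.038, -0.018 and -0.039. Without slide 8 Acadl was at -0.58 and Etfdh at -0.50, and 0 genes had an unadjusted p under 0.05; with inferred slide as a random block 1 did, Acadl. The groups overlapped for all 10 genes, where 0.0611% of all genes had every Her2/Neu+/IFNAR1-/- array below every Her2/Neu+ array.

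In glands without the receptor, the oncogene went with a median difference of -0.58 over the 10 genes, against 0.15 for all genes, and 8 of 10 were lower, where 38.1% of all genes were. In limma 0 of 10 passed, against 1.31% of all genes, and 4 of 10 were lower at an unadjusted p under 0.05, against 4.96%. Hadha had a fitted difference of -1.93 ± 0.52 (SE, adjusted p = 0.0584), with repeated values near 0 on 6 of the 9 Her2/Neu+/IFNAR1-/- arrays, so its size is uncertain. On 7 of the 9 it lay below every IFNAR1-/- array. The other 3 were Acadl at -1.07 ± 0.45, Etfdh at -0.80 ± 0.34 and Abcd3 at -0.64 ± 0.22. With inferred slide as a random block 2 of the 4 were left, Abcd3 and Hadha. Without IFNAR1-/- 41, 42 and 44, but with Her2/Neu+/IFNAR1-/- 106, also high in muscle markers, Hadha was at -1.22 with an adjusted p of 0.175. Its adjusted p was 0.0206 without Her2/Neu+/IFNAR1-/- 104 and 0.0465 without Her2/Neu+/IFNAR1-/- 106, in a range of 0.0206 to 0.644 over all alternatives. Groups overlapped for all 10 genes, where 0.0785% of all genes had every Her2/Neu+/IFNAR1-/- array below every IFNAR1-/- array.

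Whether the receptor effect differed between glands with and without the oncogene was tested as an interaction. In limma 0 of 10 genes passed, against 0.0174% of all genes. Acadvl, Acadm and Hadhb, which catalyse steps of the long and medium chain cycle, had interaction terms of 1.37 ± 0.55, 1.38 ± 0.59 and 1.22 ± 0.48 on the log2 scale (adjusted p of 0.483 or above). Of the 10 genes 7 had a term above 0, where 60.4% of all genes did, and these were the 3 above 0 at an unadjusted p under 0.05, against 6.86% of all genes. Without slide 8 they were at 0.65, 0.66 and 0.63, and 0 genes had an unadjusted p under 0.05.

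The 10 genes moved together to different degrees across arrays. Over the 45 pairs Pearson r ran from 0.058 to 0.92 with a median of 0.51, and after subtracting group means from -0.012 to 0.92 with a median of 0.44. These are descriptions over 30 arrays that share slides and the reference RNA. Acadvl, Hadhb, Acadm and Acaa2 had pairwise r between 0.77 and 0.92, Etfdh and Cpt2 had 0.69, and Hadha had at most 0.51 with any other gene.

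**Figure D4:**
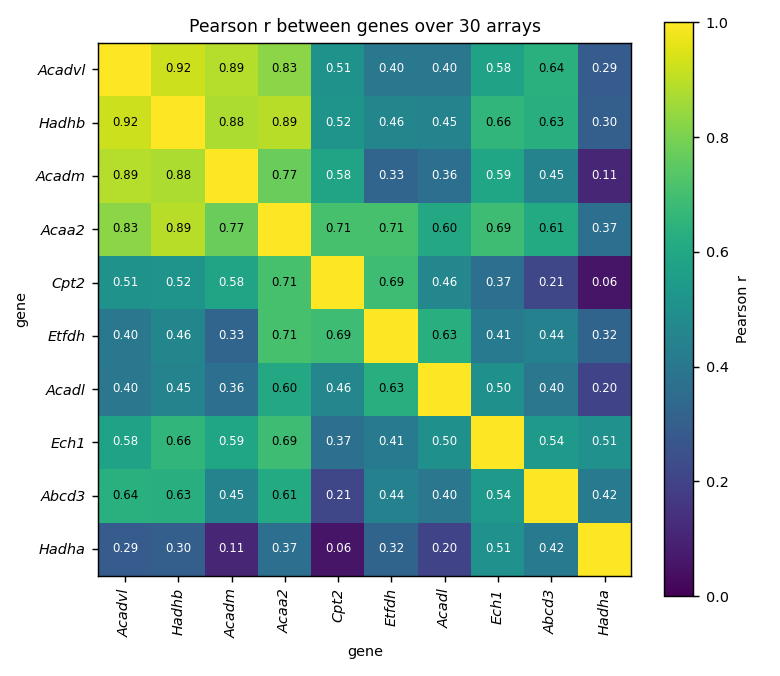
Pearson r between the log2 ratios of each pair of the 10 genes over 30 arrays, as a colour and a number. Acadvl, Hadhb, Acadm and Acaa2 form the block with the highest values, and Hadha has the lowest ones.

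Beyond the 10 genes, those whose log2 ratios most resembled their mean over the arrays encode mitochondrial proteins. Among 10321 genes with at least 27 values, the highest Pearson r were those of Uqcrc2 (0.92), a core subunit of respiratory complex III, Ndufv1 (0.91), a subunit of complex I, and Sucla2 (0.90) and Suclg1 (0.88), subunits of succinyl-CoA synthetase. Mtch2, a mitochondrial outer membrane protein, Chchd10, Ndufa3 of complex I and Idh3a, a subunit of the citrate cycle's isocitrate dehydrogenase, followed at 0.87, 0.87, 0.86 and 0.86. Uqcrc2, read by 10 probes, averaged 0.34 in Her2/Neu+/IFNAR1-/- glands, 0.15 in Her2/Neu+ glands, 0.72 in IFNAR1-/- glands and 1.24 in WT glands. The lowest r were those of Ctsh (-0.75), a lysosomal protease, Tesc (-0.75), Phactr1 (-0.74, over 28 arrays) and Arrdc1 (-0.73).

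Of the other genes of the pathway, nearly all measured mitochondrial ones lay below WT in glands with the oncogene. Most measured peroxisomal ones also did so in Her2/Neu+ glands, while in Her2/Neu+/IFNAR1-/- glands their signs were mixed. Of 16 further mitochondrial oxidation genes 14 were measured, and their mean had a Pearson r of 0.90 with that of the 10 genes over 30 arrays. In Her2/Neu+ glands 13 of 14 were below WT, with a median of -0.98, and in Her2/Neu+/IFNAR1-/- glands 13 of 14, with a median of -0.67. None of the 14 passed in limma, while 6 and 4 of them were lower at an unadjusted p under 0.05 and 1 was higher in Her2/Neu+ glands. Of all genes, 6.69% and 4.55% were lower at that p in these contrasts, and 51.4% and 40.4% lay below 0. Etfb, the beta subunit of electron transfer flavoprotein, differed by -1.45 ± 0.34 in Her2/Neu+ glands (adjusted p = 0.0855). Of 13 peroxisomal genes 10 were measured, with medians of -0.22 in Her2/Neu+ and -0.080 in Her2/Neu+/IFNAR1-/- glands against WT, and 0 passed in limma, with 3 lower at an unadjusted p under 0.05 in each contrast and 1 higher in Her2/Neu+ glands. Their centred mean had an r of 0.56 with that of the 10 genes.

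Regulators and uptake genes were measured for 9 of 10. None passed in limma, and the medians were -0.065 in Her2/Neu+ and -0.042 in Her2/Neu+/IFNAR1-/- glands against WT. At an unadjusted p under 0.05, 2 and 1 were lower, against 6.69% and 4.55% of all genes, and 1 was higher in Her2/Neu+/IFNAR1-/- glands. Their centred mean had an r of 0.50 with that of the 10 genes. Fabp3, the heart-type fatty acid binding protein, differed from WT by -2.82 ± 0.69 in Her2/Neu+/IFNAR1-/- glands (adjusted p = 0.0920), with 9 of 9 arrays below every WT array, and by -3.17 ± 0.71 in IFNAR1-/- glands (adjusted p = 0.208). Pdk4, which restrains glucose oxidation, ran from -0.045 to 6 in Her2/Neu+ glands, against 4.77 to 6 in WT glands (adjusted p = 0.158), and as it reached the limit of 6 in both, its difference has no exact size.

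Markers of the cell types in the gland were set beside these values. Of 11 measured white adipocyte markers 3 (Adipoq, Fabp4 and Pck1) stood at the upper limit of 6 on every array and 6 on some arrays, and Retn and Lpl on none. Its centred mean had a Pearson r of 0.56 and a Spearman rho of 0.33 with the 10 genes, and it ran from -0.37 to 0.19 in Her2/Neu+/IFNAR1-/- glands, -0.62 to 0.14 in Her2/Neu+ glands, -0.094 to 0.30 in IFNAR1-/- glands and -0.18 to 0.30 in WT glands. All 8 markers not at the limit on every array were below WT in Her2/Neu+ glands, with a median of -0.25. In Her2/Neu+/IFNAR1-/- glands 4 were below and 3 above, with a median of -0.0033. None passed in limma, with 2 lower at an unadjusted p under 0.05 in Her2/Neu+ glands, Cebpa and Lpl. In WT glands Plin1 and Plin4 stood at 6 on every array, and Cidec and Slc2a4 averaged 5.98 and 5.99. Such genes could hardly lie above WT, so these signs and medians are bounded by the limit. Of 3 measured brown fat markers, Cidea and Cox8b stood at or next to the limit, and Cox7a1, a subunit of cytochrome oxidase also found in muscle, fell in Her2/Neu+/IFNAR1-/- glands to 1.24 ± 0.83 (n = 9), against 3.48 ± 0.80 in WT glands (SD, n = 7). The difference of Cox7a1 was -2.25 ± 0.41 (SE, adjusted p = 0.0114, limma). Against WT it was also lower in Her2/Neu+ glands, at -1.88 ± 0.45 (adjusted p = 0.0868), and in IFNAR1-/- glands, at -1.55 ± 0.42 (adjusted p = 0.453). The list's r with the 10 genes was 0.73 and rests on Cox7a1, whose own r was 0.72. Cidea was at the limit on 29 of 30 arrays and Cox8b on all 30.

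The luminal epithelial list, with 8 of 12 genes measured, had an r of -0.42 with the 10 genes and a centred mean of 0.35 ± 0.96 in Her2/Neu+/IFNAR1-/- glands (SD, n = 9), 0.24 ± 0.90 in Her2/Neu+ glands (n = 6), -0.17 ± 0.97 in IFNAR1-/- glands (n = 8) and -0.64 ± 0.38 in WT glands (n = 7). Its milk protein gene Lalba rose in Her2/Neu+ glands to 5.93 ± 0.17 (n = 6), against 0.070 ± 0.12 in the 4 WT glands with a value. The adjusted p in limma was 8.09e-06. The Her2/Neu+ values reached the limit of 6 and the WT values lay near 0, between -0.026 and 0.24, so this difference has no exact size. Lalba stood at the limit of 6 on all 7 Her2/Neu+/IFNAR1-/- arrays with a value, and it counts in the list's centred mean. Of the other luminal genes, Krt19 (-0.42 against 1.15) and Cldn3 (4.78 against 5.80) averaged lower in Her2/Neu+ than in WT glands. The Cldn3 mean there is pulled down by a value of -0.038, in a range that reaches the limit of 6 (SD 2.69, n = 5). WT values of Cldn3 ran from 5.28 to 6, so the direction of its difference is not clear. Krt18 was near equal (0.54 against 0.53), and Krt8, Epcam, Cdh1 and Cldn7 averaged higher. The skeletal muscle list, with 6 of 12 genes measured, ran from -1.05 to 3.17 in Her2/Neu+/IFNAR1-/- glands, -1.49 to -0.10 in Her2/Neu+ glands, -1.31 to 4.10 in IFNAR1-/- glands and -1.45 to -0.073 in WT glands, with an r of 0.16. The part of fat, epithelial and muscle content in the differences of the 10 genes was not tested.

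Vessel and immune cell markers were set beside the 10 genes as well, and in Her2/Neu+ and Her2/Neu+/IFNAR1-/- glands none passed against WT in limma. The endothelial list, with 3 of 6 genes measured, had a centred mean of -2.23 to 0.73 (mean -0.24) in Her2/Neu+/IFNAR1-/- glands, -2.72 to 0.88 (mean -0.67) in Her2/Neu+ glands, -0.54 to 0.84 (mean 0.35) in IFNAR1-/- glands and -0.61 to 0.65 (mean 0.29) in WT glands. All 3 were below WT in Her2/Neu+ glands, and Kdr, a receptor for vascular endothelial growth factor, was at -0.84 ± 0.28 (SE, adjusted p = 0.192), with 5 of 6 arrays below every WT array. All 4 measured T cell genes were below WT in Her2/Neu+ glands, with a median of -0.74 and 0 at an unadjusted p under 0.05. Of 6 macrophage genes 3 were below WT there, with Csf1r, a receptor for macrophage growth factor, at -1.06 ± 0.29 (adjusted p = 0.144). Of 6 basal epithelial genes 4 were below WT there, with Acta2 at -0.98 ± 0.35 (adjusted p = 0.232), and of 3 B cell genes 1 was below, with Cd22 at 1.66 ± 0.67 (adjusted p = 0.294). The part of these cells in the differences of the 10 genes was not tested.

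**Figure D5:**
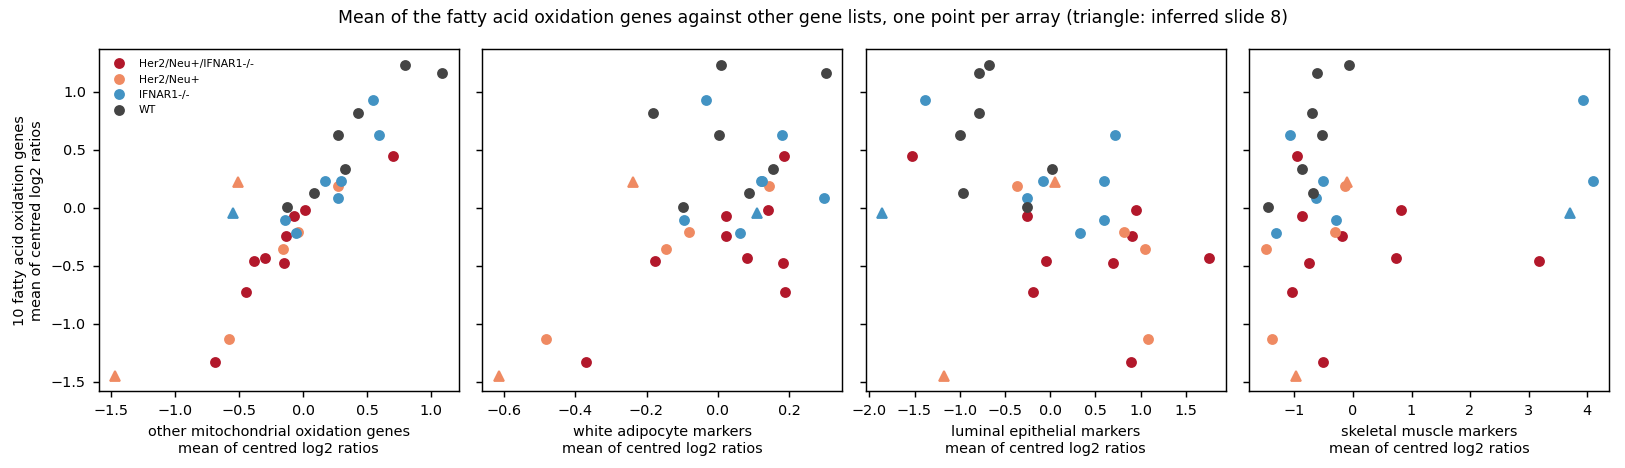
Mean centred log2 ratio of the 10 fatty acid oxidation genes (vertical) against that of 4 other gene lists (horizontal), 1 point per array, coloured by group, with slide 8 as triangles. The points lie close to a line for the other mitochondrial oxidation genes (r = 0.90) and are scattered for the skeletal muscle markers (r = 0.16).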

How the data were processed

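Inguinal mammary gland RNA of 30 samples was measured against a common reference. The deposited table holds log2 ratios of Cy5 (gland) over Cy3 (reference), per the labels; base 2 was inferred from values that end at -6 and 6. Background correction, normalization and filters are not given in the sources used here. Of 20896 probes, 17376 carried 1 gene symbol in the platform annotation. Probes measured on 50% or more of the arrays in each of the groups were averaged per gene, which left 11463 genes. Groups came from the sample titles. Differences were fitted in limma 3.58.1 (R 4.3.3) over all 30 arrays with 1 mean per group, two-sided, with Benjamini-Hochberg adjustment over all genes and a threshold of 0.05; the procedure was tested on simulated data. Nothing says that samples are separate animals, so p-values measure the spread between samples only. The number of arrays limits the precision.

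The 10 genes, the gene lists and the tests were chosen with earlier results of these data known. Named by rule were the 10 genes, of each other list and comparison at most 4 genes past the threshold or else the one with the smallest p, the 8 genes with the highest and the 4 with the lowest Pearson r with the genes' mean among genes measured on 27 or more arrays. Other lists covered other mitochondrial and peroxisomal oxidation, regulators, and markers of white and brown fat, skeletal muscle, luminal and basal epithelium, B cells, T cells, macrophages and endothelium; the last 5 lists had an r with the 10 genes of 0.20, -0.44, -0.19, -0.0049 and -0.029. Alternatives covered normalization, probe filters, probe choice, array weights, a variance trend, inferred slide and array set, repeated values, IFNAR1-/- arrays with high muscle markers and leaving out each array. The contrast of Her2/Neu+/IFNAR1-/- with WT and the fit without inferred slide 8 were chosen after seeing the data. Promoter windows are RefSeq's, for GRCm38.p6.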

Additional observations from a re-analysis of the deposited data

Results flagged for a closer look

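Of 40 combinations of gene and group, 1 held an array that stood apart from the others of its group by Dixon's test, where chance gives about 1 in 20. Hadha, the alpha subunit of the trifunctional protein, had a log2 ratio of 3.00 on Her2/Neu+/IFNAR1-/- 104. The other 8 arrays of that group lay between -0.15 and 1.22, and 6 of them carried repeated values near 0. Without this array the difference of Hadha from IFNAR1-/- glands was -2.24 with an adjusted p of 0.0206 in limma, against -1.93 and 0.0584 with it, sizes that rest on those repeated values.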

How the results depend on the processing

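No paired analysis was possible because sample numbers are not shared between groups. Across 14 alternatives beside leaving out each array, every gene tested stayed below WT in Her2/Neu+/IFNAR1-/- glands and, except in array set 2 alone (8 of 10), in Her2/Neu+ glands. With repeated values missing 9 genes were tested, without Hadha. Of the 10 genes, the number past the threshold was 0 as reported. For Her2/Neu+ minus WT it was 2 with quantile normalization, 1 with array set as a fixed term, 3 in array set 2 alone and 1 with repeated values missing, and 0 to 3 on leaving out 1 array. For Her2/Neu+/IFNAR1-/- minus WT it was 4 with quantile normalization, 1 with probes measured on every array, 5 with array weights, 2 with repeated values missing and 1 without slide 8, and 0 to 2 on leaving out 1 array. For Her2/Neu+/IFNAR1-/- minus Her2/Neu+ it was 2 in array set 2 alone. For Her2/Neu+/IFNAR1-/- minus IFNAR1-/- it was 1 with quantile normalization and 1 with probes measured on every array, and 0 to 1 on leaving out 1 array. The interaction had 1 in array set 2 alone. The cause of these moves was not tested.

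Single genes changed sign as follows, none past the threshold. In IFNAR1-/- minus WT Abcd3 was -0.017 with repeated values missing and -0.017 to 0.15 on leaving out 1 array, and Ech1 -0.042 to 0.36. In Her2/Neu+ minus WT, array set 2 alone gave Acadl 0.061 and Etfdh 0.27. In Her2/Neu+/IFNAR1-/- minus Her2/Neu+, Acaa2 was 0.26 with the probe of largest SD, 0.43 in array set 2 and -0.32 to 0.078 on leaving out 1 array. There Acadm was -0.014 in array set 1, Hadha -0.29 in array set 2, and without slide 8 Acadvl was -0.018, Cpt2 0.035 and Hadhb -0.039. Cpt2 was -0.32 to 0.092 on leaving out 1 array. In Her2/Neu+/IFNAR1-/- minus IFNAR1-/-, quantile normalization gave Acadm -0.18 and Cpt2 -0.24, array set 1 gave Acadm -0.10 and array set 2 gave Acadvl 0.087. In the interaction Etfdh was 0.038 with quantile normalization, 0.10 with array weights, 0.20 in array set 1, 0.081 without IFNAR1-/- 41, 42 and 44, 0.32 without slide 8 and -0.36 to 0.13 on leaving out 1 array. Hadha was 0.24 with array weights, 0.28 without those IFNAR1-/- arrays, 0.057 without slide 8 and -0.75 to 0.037 on leaving out 1 array. Acadl was 0.035 with repeated values missing, and Abcd3 -0.083 to 0.27 on leaving out 1 array.

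Counts over all genes moved more. Of 11463 genes, 15 passed in Her2/Neu+ minus WT, against 0 in array set 1, 750 in array set 2, 33 with array weights, 3 with slide as a random block, 24 with quantile normalization, 38 with repeated values missing and 3 to 131 on leaving out 1 array. In Her2/Neu+/IFNAR1-/- minus WT 20 passed, against 0, 2, 168, 7, 32, 47 and 9 to 41 under the same alternatives. In Her2/Neu+/IFNAR1-/- minus Her2/Neu+ 9 passed, against 1 in array set 1, 908 in array set 2, 4 in the compared groups only, 5 with slide as a random block, 15 with array set as a fixed term, 6 with the probe of largest SD and 7 to 23 on leaving out 1 array. In Her2/Neu+/IFNAR1-/- minus IFNAR1-/- 150 passed, against 0 in array set 1, 9 in array set 2, 384 with array weights, 31 in the compared groups only, 13 with slide as a random block, 261 with repeated values missing, 383 without slide 8 and 38 to 325 on leaving out 1 array. In IFNAR1-/- minus WT 3 passed, with 0 to 25 under the alternatives, and 2 in the interaction, with 0 to 486.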
